A study of Brassica juncea with 18 samples.

Results

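The step from 15 to 20 days after pollination (DAP) in untreated siliques of Indian mustard is described here. In these pods the embryo passes between these 2 ages from the globular to the heart stage, by the sectioning of the study. The abundance of each assembled transcript in the 20 DAP control library was set against that in the 15 DAP control library on the log2(FPKM + 1) scale, where FPKM is the abundance of a transcript per kilobase of its length, scaled to the number of fragments mapped in the library. A transcript counted as different at a difference of 2 or more on this scale (4-fold), and as supported where 25 DAP controls differed from 10 DAP controls in the same direction. Of 13342 transcripts (9446 unigenes, the clusters of isoforms made by the assembler), 381 were at least 4-fold higher and 373 at least 4-fold lower at 20 DAP, which is 2.86% and 2.8% of those measured. Of these, 365 higher transcripts (276 unigenes) and 298 lower ones (263 unigenes) were supported, or 2.74% and 2.23% of all. They are the members described below. Each control stage is 1 library, so no p-value or replicate error can be given for the step itself, and 4-fold is a size and not a test.

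The study grew Brassica juncea var. Varuna in the field, pollinated emasculated buds by hand with pollen of the same cultivar, and took whole siliques every 5 days from 5 to 30 DAP. Control branches were cut, stood in water and kept in the field, while cold-treated branches were cut, stood in water and chilled for 6 h or 12 h (4 °C) with the light kept on. This gave 18 libraries, 1 for each stage and treatment, and all controls were collected on 1 day. A whole silique holds embryo, endosperm, seed coat and pod wall together, so that fewer cells of a type and less RNA per cell cannot be told apart.

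The table is limited to transcripts that the authors found to differ between libraries, and is not the whole transcriptome. Isoforms of a unigene share most of their sequence, and B. juncea carries near-identical gene copies from 2 parental genomes, so the division of reads among isoforms and copies is uncertain and members are not independent of each other. Between 11194 and 12462 transcripts were above 0 FPKM in a library. The lowest values above 0 of short transcripts put 5 FPKM in a transcript of 1 kb at about 166 fragments in the 20 DAP control and 126 in the 15 DAP control. By the methods of the study, a smaller share of reads passed quality filtering in the 25 DAP control than in the controls of 5 to 20 DAP.

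In crucifer seeds the early phase is one of cell division, of a liquid endosperm and of a pod wall that is still lengthening. Around the heart stage the endosperm forms cell walls, regulators such as LEC1 (a subunit of the NF-Y transcription factor) and WRINKLED1 (an AP2 factor that activates fatty acid synthesis) direct the embryo towards reserve storage, and the pod wall and veins begin to lay down secondary walls of cellulose, xylan and lignin. Napins, cruciferins and oleosins, the storage and oil body proteins, follow during maturation.

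Members among the embryo regulators were LEC1-1 and WRINKLED1. LEC1-1 (c66162_g1_i1) had 48.95 FPKM at 20 DAP, against 1.25 FPKM at 15 DAP, a difference of 4.47. Over control stages from 5 to 30 DAP it stood at 0.23, 0.57, 1.25, 48.95, 55.18 and 127.91 FPKM, so the 15 to 20 DAP step was the largest between neighbouring stages. WRINKLED1 (c70900_g1_i4) had 21.88 FPKM at 20 DAP, against 2.29 at 15 DAP (difference 2.80), and reached 51.38 FPKM at 30 DAP. Of 15 transcripts listed as embryo and maturation regulators, 4 were higher members, 2 isoforms each of LEC1-1 and WRINKLED1, and none was lower. The median difference of this list was 1.24 against 0.04 over all transcripts, and its summed level was 149.3 FPKM at 20 DAP, against 12.8 FPKM at 15 DAP. FUSCA3 (c68341_g2_i1), a B3 factor of seed maturation, had 1.78 FPKM at 20 DAP, against 0.18 at 15 DAP, a difference of 1.24 that stayed below 4-fold. No transcript of the table matched ABI3.

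Seed products formed a graded picture. The seed-specific proteins Bn15D33A and Bn15D80B, known by name from oilseed rape, were the named members with the largest differences. Bn15D33A (c143325_g1_i1) had 145 FPKM at 20 DAP, against 1.36 FPKM at 15 DAP (difference 5.95). Bn15D80B (c50548_g3_i1), which carries a lipid transfer and amylase inhibitor domain, had 545 FPKM at 20 DAP, against 8.68 FPKM at 15 DAP (5.82). Both kept going up over control stages, to 572 and 3133 FPKM at 30 DAP. Of 15 Bn15D transcripts, a list made after the members had been seen, 4 were higher members and none was lower. The median difference of the 15 was -0.20. Early nodulin-like protein BnENODL4 (c73075_g3_i2), a copper-binding-like cell surface protein, had 74.3 FPKM at 20 DAP, against 0.35 FPKM at 15 DAP (5.80), and 642 FPKM at 30 DAP. Early nodulin-like transcripts (20) were also listed after the members had been seen. All 6 higher members of that list were BnENODL4, with 3.11 to 74.3 FPKM at 20 DAP, against 0 to 0.35 FPKM at 15 DAP. The 4 lower ones of that list included early nodulin-like protein 22 (c37038_g1_i1), with 2.65 FPKM at 20 DAP, against 33.9 FPKM at 15 DAP (-3.26).

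Higher members were 5% of the 40 storage protein transcripts and 0 of the 20 oil body ones, beside 2.74% of all transcripts. These counts depend on the pseudocount: with 0.1 in place of 1, 9 of 40 and 9 of 20 were higher members, beside 1023 of all 13342 transcripts. Of the 40 storage and related lipid transfer transcripts, which summed to 505 FPKM at 20 DAP, against 443 FPKM at 15 DAP, 2 were higher members, a partial napin (c42453_g1_i1) with 6.48 FPKM at 20 DAP, against 0.09 FPKM at 15 DAP, and a storage and lipid transfer family protein (c45262_g1_i1) with 6.57 FPKM, against 0.09 FPKM. The most abundant napin over all controls, Napin-B (c62438_g1_i2), had 0.11 FPKM at 20 DAP, against 0.10 FPKM at 15 DAP, and 606 FPKM at 30 DAP. Cruciferin CRU1 (c66547_g1_i1) had 1.58 FPKM at 20 DAP, against 0.07 FPKM at 15 DAP (1.27). None of the 20 oil body transcripts was a member. Oleosin S3-2 (c66737_g4_i1), which coats oil bodies, had 2.74 FPKM at 20 DAP, against 0.31 FPKM at 15 DAP (1.51), and 66.3 FPKM at 30 DAP. None of 14 late embryogenesis abundant transcripts, which summed to 11.9 FPKM at 20 DAP, against 10.9 FPKM at 15 DAP, was a member either.

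**Figure D1:**
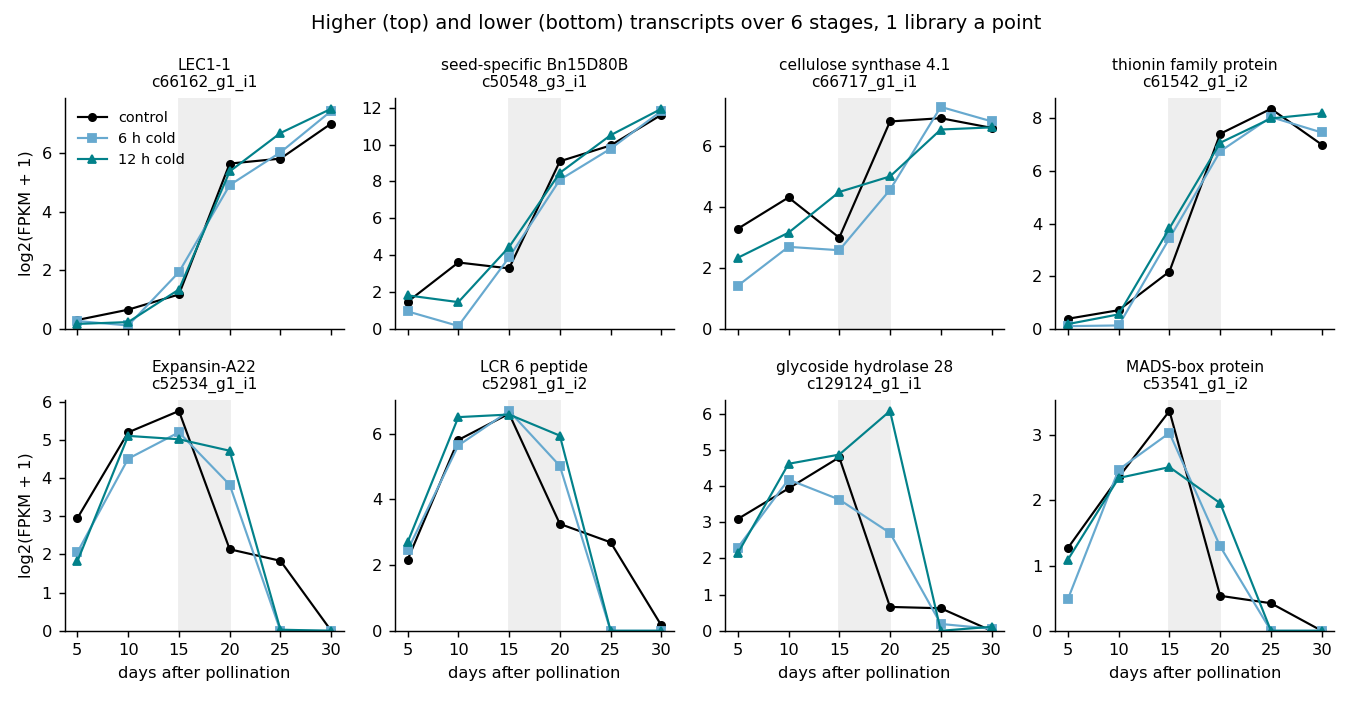
Level of 8 members over the 6 stages, as log2(FPKM + 1) against days after pollination, with 1 library a point and lines for control, 6 h cold and 12 h cold siliques. The 4 members of the top row are higher at 20 than at 15 DAP (shaded) in the control, as LEC1-1 with 48.95 against 1.25 FPKM, and the 4 of the bottom row are lower, as Expansin-A22 with 3.39 against 52.98 FPKM.

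Genes of the secondary wall held members on the higher side only. Of 52 transcripts listed for secondary wall and lignin, 13 (7 unigenes) were higher members and none was lower, that is 25% of the list beside 2.74% of all transcripts, and the median difference of the whole list was 0.57. Of the 13, 11 encode cellulose synthase subunits of the kinds that build the secondary wall in Arabidopsis, and the others are laccases, enzymes that join lignin units. The 13 had 13.7 to 111 FPKM (median 36.6) at 20 DAP, against 1.18 to 8.63 FPKM (median 3.01) at 15 DAP. These are the libraries by which they were chosen. Their medians over control stages from 5 to 30 DAP were 4.61, 6.35, 3.01, 36.6, 40.5 and 38.3 FPKM, so they were low up to 15 DAP and level from 20 DAP on. The cellulose synthase subunit c66717_g1_i1 had 111 FPKM at 20 DAP, against 6.96 FPKM at 15 DAP (3.82). Laccase c70753_g1_i1 had 30.3 FPKM at 20 DAP, against 1.62 FPKM at 15 DAP (3.58).

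Other wall genes of the same kind were among the higher members. COBRA-like protein 4 (c28442_g1_i2), needed for cellulose of the secondary wall in Arabidopsis, had 16.0 FPKM at 20 DAP, against 0.53 FPKM at 15 DAP (3.47). A transcript with a fasciclin domain, found in cell adhesion proteins, and no protein name (c64387_g1_i2) had 73.9 FPKM at 20 DAP, against 2.80 FPKM at 15 DAP (4.30). Peroxidase 64 (c68728_g1_i4) had 106 FPKM at 20 DAP, against 4.75 FPKM at 15 DAP (4.22). The factor annotated as myb domain protein 103 (c67210_g1_i4), a regulator of secondary walls in Arabidopsis, had 6.30 FPKM at 20 DAP, against 0.27 FPKM at 15 DAP (2.52). Lists drawn from the annotation after the members had been seen, and therefore no independent support, gave 30 higher and 0 lower members of 73 transcripts for secondary cell wall biogenesis, and 48 higher and 1 lower of 222 for xylan biosynthesis. The 30 had a median of 28.5 FPKM at 20 DAP, against 2.84 FPKM at 15 DAP. Among 85 arabinogalactan and wall proteins 4 were higher members, of which fasciclin-like arabinogalactan protein 10 (c68207_g1_i6) had 16.3 FPKM at 20 DAP, against 0.68 FPKM at 15 DAP, and 153 FPKM at 30 DAP.

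Among lists for the loosening of the primary wall, expansins and xyloglucan endotransglycosylases held lower members only, and pectin enzymes held members both ways. Of 20 expansins, proteins that let growing walls extend, 5 were lower members (25%, beside 2.23% of all transcripts) and none was higher, with 0.06 to 3.64 FPKM at 20 DAP, against 5.38 to 53.0 FPKM at 15 DAP. The remaining expansins were not lower as a body, since the median of the 20 was -0.19. Expansin-A22 (c52534_g1_i1) had 3.39 FPKM at 20 DAP, against 53.0 FPKM at 15 DAP (-3.62), and over control stages from 5 to 30 DAP it had 6.72, 35.6, 53.0, 3.39, 2.56 and 0 FPKM. Xyloglucan endotransglucosylase/hydrolase 2 (c65353_g1_i1), which cuts and rejoins xyloglucan, had 1.08 FPKM at 20 DAP, against 17.3 FPKM at 15 DAP (-3.14), the only member among 19 of its family, whose median was 0.25. Of 124 pectin enzymes and inhibitors, 4 were higher and 4 lower members, and 2 and 8 after rescaling by the median ratio. A pectin methylesterase inhibitor (c19902_g1_i2), which keeps pectin esterified, had 0.68 FPKM at 20 DAP, against 12.2 FPKM at 15 DAP (-2.97).

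Some of the enzymes that take polysaccharides apart were lower members. Of 93 glycoside hydrolase transcripts, 9 were lower members (9.68%, beside 2.23% of all transcripts) and none higher. The list was made after the members had been seen, so this share is no independent support. The list as a whole had a median difference of 0 and summed to 561 FPKM at 20 DAP, against 513 FPKM at 15 DAP. The 9 had 0.07 to 4.95 FPKM at 20 DAP, against 4.82 to 49.4 FPKM at 15 DAP. The family 28 member c129124_g1_i1, of the polygalacturonase family, had 0.58 FPKM at 20 DAP, against 26.8 FPKM at 15 DAP (-4.14). Mannan endo-1,4-beta-mannosidase 3 (c58277_g1_i1), which cuts the mannan backbone, had 4.95 FPKM at 20 DAP, against 49.4 FPKM at 15 DAP (-3.08). Beta-xylosidase 3 was met in 3 unigenes, with 0.07 to 0.09 FPKM at 20 DAP, against 5.15 to 5.65 FPKM at 15 DAP.

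Small secreted peptides went both ways. Of 72 transcripts for small cysteine-rich and defensin-like peptides (a list made after the members had been seen), 15 were lower and 8 higher members. The 15 had 0.30 to 69.8 FPKM (median 1.47) at 20 DAP, against 7.74 to 298 FPKM (median 28) at 15 DAP. These ranges overlap between peptides, while every peptide was lower by the rule that chose it. The median of the 15 was 0 at 30 DAP. The peptide low-molecular-weight cysteine-rich 6 (c52981_g1_i2) had 8.54 FPKM at 20 DAP, against 96.7 FPKM at 15 DAP (-3.36). On the higher side a thionin family protein (c61542_g1_i2), of a class of antimicrobial peptides, had 169 FPKM at 20 DAP, against 3.51 FPKM at 15 DAP (5.24), and low-molecular-weight cysteine-rich 23 (c50326_g1_i1) had 24.3 FPKM, against 0.49 FPKM (4.09). Proteins related to the S1 self-incompatibility protein of poppy pistils also split, with 4 lower and 2 higher members of 14 named transcripts. This list too was made after the members had been seen. The lower c55630_g1_i1 had 10.5 FPKM at 20 DAP, against 115 FPKM at 15 DAP (-3.33). The member with the largest difference of all, c60013_g2_i1, carries the same domain without a protein name and had 95.4 FPKM at 20 DAP, against 0.17 FPKM at 15 DAP (6.36). It was picked after its values were seen. In the list of defensins, inhibitors and pathogenesis-related proteins, 6 of 107 were higher and 8 lower members.

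**Figure D2:**
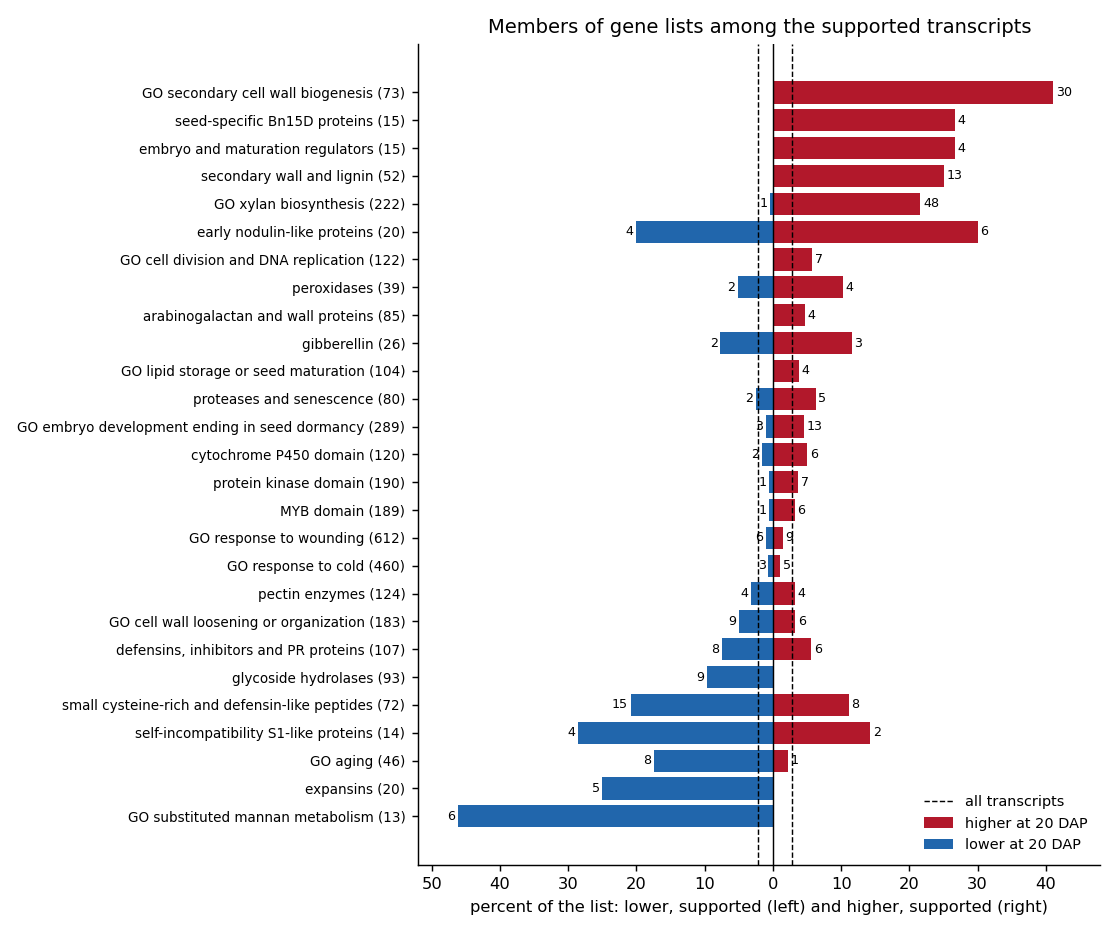
Share of each gene list (number of transcripts in brackets) that is a member higher at 20 DAP (right, red) or lower at 20 DAP (left, blue), in percent, with the number of members beside each bar and dashed lines at 2.74% and 2.23%, the shares over all 13342 transcripts. Secondary wall lists lie on the right only, as 13 of 52 for secondary wall and lignin, and expansins on the left only, with 5 of 20. Lists made after the members had been seen are drawn among the others, and their bars are no independent support.

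Among hormone genes, gibberellin genes held members in both directions, 3 higher and 2 lower of 26. Gibberellin 20-oxidase 4 (c66552_g1_i6), an enzyme of gibberellin synthesis, had 21.6 FPKM at 20 DAP, against 1.52 FPKM at 15 DAP (3.17). A gibberellin-regulated peptide (c73374_g1_i1) had 174 FPKM at 20 DAP, against 13.0 FPKM at 15 DAP (3.65), and another (c16507_g1_i1) had 0.10 FPKM, against 8.70 FPKM (-3.14). One of 69 auxin transcripts was a higher member, and none of 42 cytokinin, 27 abscisic acid, 65 ethylene and 38 jasmonate transcripts was a member in either direction. With a pseudocount of 0.1, 4 cytokinin transcripts were lower, 2 abscisic acid ones higher, 1 ethylene one lower and 1 jasmonate one each way.

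Transcription factor families held members at shares on either side of those of all transcripts (2.74% higher, 2.23% lower), mostly from single genes. Higher members were 7.41% of bZIP and 3.17% of MYB transcripts, but 1.82% of AP2 and 1.12% of bHLH ones. Lower members were 6.67% of MADS and 1.59% of NAC transcripts. LEC1-1 accounts for the 2 higher members among 4 NF-Y transcripts, and WRINKLED1 for the 2 among 110 AP2 transcripts (1 after rescaling by the median ratio). Of 45 MADS domain transcripts 3 were lower members and none higher (5 lower after rescaling by the median ratio). One of these, AGL62-like c70411_g1_i6, had 0.15 FPKM at 20 DAP, against 5.31 FPKM at 15 DAP (-2.46). In Arabidopsis AGL62 keeps the endosperm in its undivided liquid phase. Of 189 MYB domain transcripts 6 were higher and 1 lower. Myb domain protein 118 (c53500_g1_i1), a factor of the maturing endosperm in Arabidopsis, had 6.97 FPKM at 20 DAP, against 0.07 FPKM at 15 DAP (2.90). Transcripts with a Dof domain gave 1 member each way (c62328_g4_i1 with 0.51 FPKM at 20 DAP, against 13.9 FPKM at 15 DAP, and c65229_g1_i2 with 13.8 FPKM, against 1.05 FPKM). Of bHLH transcripts 1 of 89 was a higher member, of bZIP transcripts 2 of 27. Homeodomain (65), NAC (63) and WRKY (57) transcripts each gave 1 lower member.

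Members among division and turnover genes came from few unigenes. Higher members were 5.74% of the cell division list and 6.25% of the protease list, beside 2.74% of all transcripts. Proteins of the TPX2 family, microtubule-binding proteins named after a spindle assembly factor, gave 7 higher members from 2 unigenes, with 3.74 to 15.5 FPKM at 20 DAP, against 0 to 0.29 FPKM at 15 DAP. They account for 6 of the 7 higher members among 122 transcripts annotated to cell division and DNA replication, and BnENODL4 is the other. None of 8 cell cycle, 5 histone and 62 ribosomal protein transcripts was a member. The 5 histone ones summed to 1.45 FPKM at 20 DAP, against 0.24 FPKM at 15 DAP, too low for any to reach 4-fold on the scale used. The 62 ribosomal ones summed to 24.5 FPKM, against 25.6 FPKM, and 54 of them were below 1 FPKM in all controls of 5, 10 and 15 DAP. For these 2 lists the absence of members therefore says little. Of 80 protease and senescence transcripts 5 were higher and 2 lower. A papain family protease (c65233_g1_i1) had 15.7 FPKM at 20 DAP, against 0.29 FPKM at 15 DAP (3.69), and 91.2 FPKM at 30 DAP. Of 46 transcripts annotated to aging (a list added later), 8 were lower members and 1 higher, among them papain-like proteases such as c61029_g1_i1, with 4.71 FPKM at 20 DAP, against 44.3 FPKM at 15 DAP (-2.99).

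Cytochrome P450 enzymes gave 6 higher and 2 lower members of 120, and protein kinases 7 and 1 of 190. One lower P450 transcript (c71992_g2_i3) was on its way down before, with 120, 50.9, 14.0, 1.80, 1.39 and 0.38 FPKM over control stages from 5 to 30 DAP. Of 289 transcripts annotated to embryo development ending in seed dormancy 13 were higher and 3 lower members, and of 104 for lipid storage or seed maturation 4 were higher. Sugar transport and cleavage (1 of 43), lipid transfer proteins (1 of 27) and fatty acid biosynthesis by annotation (1 of 59) each held 1 higher member. Cutin and wax held 1 each way of 48, and photosynthesis by annotation 2 lower of 95. Response to cold held 5 higher and 3 lower of 460, and response to wounding 9 and 6 of 612. Wall loosening or organization held 6 higher and 9 lower of 183. Of the lists made after the members had been seen, mannan metabolism held 6 lower of 13 and peroxidases 4 higher and 2 lower of 39. The pollen Ole e 1 domain, also such a list, held 1 higher of 28. Their shares are no independent support. In all, 24 of the 62 lists with a transcript had no member, and 10 of 62 with a pseudocount of 0.1, under which 14 of the 24 gained at least 1.

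Lists of markers for the tissues in a silique were short and held at most 1 member each way. Higher members were 2.86% of the seed coat list, beside 2.74% of all transcripts. The pollen and floral list held 2.70% each way, beside 2.74% higher and 2.23% lower of all. Seed coat flavonoid transcripts summed to 1060 FPKM at 20 DAP, against 430 FPKM at 15 DAP, with 1 higher member of 35 (chalcone synthase 3, c72043_g1_i2, the entry enzyme of flavonoid synthesis, with 17.2 FPKM against 3.46 FPKM) and a list median of 0.98. After rescaling by the median ratio it had none. Endosperm and Polycomb transcripts gave 1 lower member of 7, which is the AGL62-like one, and a median of -0.75, while their sum was 71.0 FPKM at 20 DAP, against 31.5 FPKM at 15 DAP. Most of that sum is the Polycomb protein FERTILIZATION-INDEPENDENT ENDOSPERM (c67588_g2_i1, chosen after its values were seen), with 67.5 FPKM at 20 DAP, against 20.1 FPKM at 15 DAP. Silique wall and dehiscence transcripts (33) held no member, with a median of -0.01, but summed to 295 FPKM at 20 DAP, against 578 FPKM at 15 DAP, and 2 of them were at least 4-fold lower without support. Photosystem and light-harvesting transcripts (13) held no member, with a median of 0.60. Mucilage transcripts (3) and embryo and meristem patterning transcripts (19) had medians of 0.09 and -0.04. Pollen and floral transcripts summed to 100.5 FPKM at 20 DAP, against 127 FPKM at 15 DAP, with 1 member each way of 37, and their part in the result was not tested. LEC1-1 and WRINKLED1 are members, so their control levels cannot check the stage labels. In cold-treated libraries, which the rule did not use, LEC1-1 (c66162_g1_i1) had 29.0 and 40.5 FPKM at 20 DAP, against 2.82 and 1.53 FPKM at 15 DAP.

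None of 31 clock, 38 cold and dehydration and 57 heat shock transcripts was a member, with medians of 0.03, -0.18 and 0.08. The cold and dehydration list summed to 525 FPKM at 20 DAP, against 935 FPKM at 15 DAP. The wider lists by annotation given above, response to cold and response to wounding, held members at smaller shares than all transcripts. For cold 1.09% were higher and 0.65% lower, and for wounding 1.47% and 0.98%, beside 2.74% and 2.23% of all. None of 94 retroelement transcripts was one. Fatty acid and oil synthesis (33), starch (7), amino acid and nitrogen transport (79), glucosinolates and myrosinase (33), B3 (51) and TCP (10) factors were also without a member. The actin-7-like control transcript c51347_g2_i2 had 13.0 FPKM at 20 DAP, against 12.0 FPKM at 15 DAP in controls. It was not steady in other libraries, with 2.83 FPKM in the 25 DAP control and 2.67 and 0.78 FPKM in 6 h and 12 h cold siliques of 20 DAP, against 6.95 and 7.59 FPKM at 15 DAP.

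Of 43 transcripts of organelle origin 1 was a higher member (c69941_g3_i1, annotated as mitochondrial, with 66.6 FPKM at 20 DAP, against 13.1 FPKM at 15 DAP), and none after rescaling by the median ratio. The list had a median of 0.19 and summed to 98.7 FPKM at 20 DAP, against 26.1 FPKM at 15 DAP, with that transcript included. The member with the highest level, c59645_g1_i1, has no protein name, is 6639 bp long and had 4159 FPKM at 20 DAP, against 333 FPKM at 15 DAP. It then had 360 FPKM in the 25 DAP control and 2006 FPKM in the 30 DAP control, and in 12 h cold siliques it was lower at 20 DAP, with 578 FPKM, against 2142 FPKM at 15 DAP. A transcript annotated as cell wall-associated hydrolase (c7327_g1_i1) followed a like course, with 271 FPKM at 20 DAP, against 21.2 FPKM at 15 DAP, and 25.6 FPKM at 25 DAP. The higher members together took 13.2% of the summed FPKM at 20 DAP, against 1.42% at 15 DAP, and 10.1% against 1.14% without c59645_g1_i1. What part these transcripts have in the scaling of the 20 DAP library was not tested.

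The rule used the controls of 10, 15, 20 and 25 DAP, so the course of the members over these stages is a description of how they were chosen. Higher members had median levels of 0.85, 1.53, 1.41, 16.95, 23.74 and 22.36 FPKM over control stages from 5 to 30 DAP, and lower ones 2.22, 9.91, 14.99, 1.45, 1.08 and 0 FPKM. The difference from 15 to 20 DAP was the largest of the 3 between 10 and 25 DAP in 358 of 365 higher and 297 of 298 lower members, and its median was 91.4% and 115% of the span from 10 to 25 DAP. Before the step, 250 of the 298 lower members had gone the opposite way, being higher at 15 than at 10 DAP, and 242 had their highest control level at 15 DAP. Of the higher members, 90 had their highest control level at 20 DAP, 116 at 25 DAP and 150 at 30 DAP. At 30 DAP 152 of the lower members were listed at 0 FPKM.

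Of the higher members, 102 were at least 2-fold higher at 30 than at 20 DAP, 71 at least 2-fold lower, and 192 between these limits. A set of 99 was below 1 FPKM in all controls of 5, 10 and 15 DAP, LEC1 isoform c66162_g1_i2 included, and 47 of these were at least 2-fold higher at 30 than at 20 DAP. A level of 10 FPKM or more was reached in the higher library by 247 higher and 198 lower members, and 100 FPKM by 28 and 20. Lower members were shorter, with a median length of 576 bp, against 792 bp for higher members and 834 bp for all transcripts. A best hit in the annotation was present for 90.1% of higher and 79.5% of lower members, beside 84.2% of all transcripts.

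**Figure D3:**
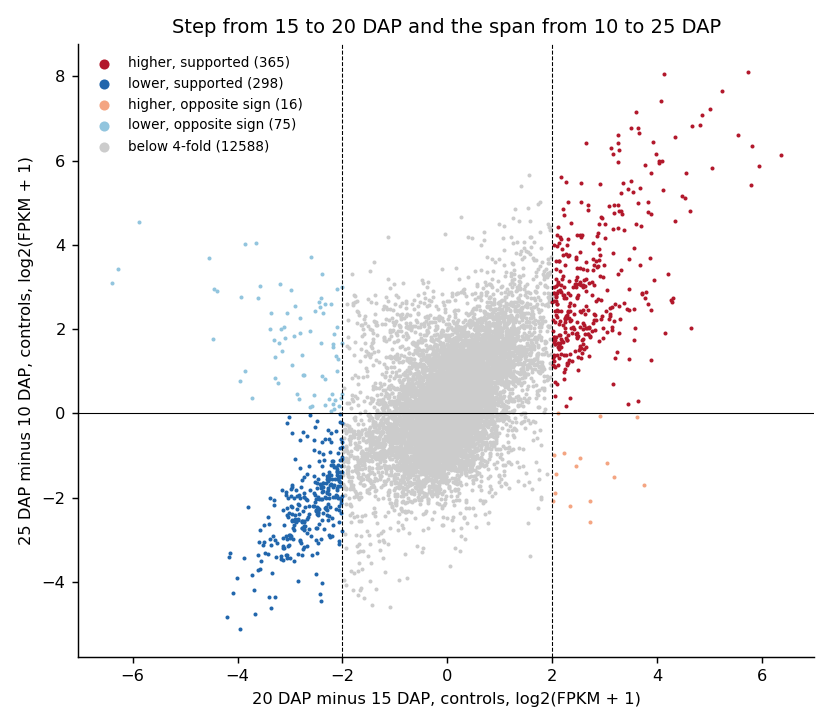
Each of 13342 transcripts by its difference between 20 and 15 DAP controls (x axis) and between 25 and 10 DAP controls (y axis), both on log2(FPKM + 1), with dashed lines at 4-fold. The 365 higher and 298 lower members lie in the upper right and lower left, and 75 lower transcripts of the opposite sign lie at the upper left.

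Among the 5 steps between neighbouring control stages, that from 15 to 20 DAP had 381 transcripts higher and 373 lower by at least 4-fold. The other steps, in order of age, had 436 and 200 from 5 to 10 DAP, 136 and 76 from 10 to 15 DAP, 233 and 15 from 20 to 25 DAP, and 511 and 661 from 25 to 30 DAP. The step was therefore larger than its neighbours on both sides and smaller than the last. Rescaling the libraries by the median ratio left 283 higher and 363 lower members, or 43.8% higher in place of 55.1%, because the 20 DAP factor was 0.25 above that of 15 DAP on the log2 scale. All 283 were among the 365.

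The libraries at the ends of the series, which the rule did not use, mostly went the same way. The 30 DAP control, like the 25 DAP control used by the rule, had a smaller share of reads passing quality filtering than the earlier controls. From 5 to 30 DAP, 344 of 365 higher members were higher at 30 DAP, beside 51.9% of all transcripts, and 274 of 298 lower members were lower, beside 45.5%. Among higher transcripts, 2-isopropylmalate synthase (c65472_g1_i2), of leucine synthesis, was just inside with 19.5 FPKM at 20 DAP, against 4.08 FPKM at 15 DAP (2.01), and a transporter of the EamA family (c68556_g1_i2) just outside with 6.22 FPKM, against 0.82 FPKM (1.99). Among lower ones, alpha-expansin protein 25 (c61050_g1_i1) was just inside with 3.64 FPKM at 20 DAP, against 17.6 FPKM at 15 DAP, and an emp24 family protein (c63998_g1_i1) just outside with 1.16 FPKM, against 7.62 FPKM, on either side of a difference of -2.

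The same pair of stages in cold-treated siliques gave a set of libraries independent of the rule. In 6 h cold siliques 344 of 365 higher members were higher at 20 than at 15 DAP, beside 49.5% of all transcripts, and 295 of 298 lower members were lower, beside 44.3%. In 12 h cold siliques the counts were 310 of 365, beside 43.6%, and 235 of 298, beside 48.7%. Both durations went the way of the control for 299 of 365 higher members, beside 30.7% of all transcripts, and for 234 of 298 lower members, beside 31.4%. The differences were smaller than in controls. Higher members had medians of 2.57 in controls, 1.48 in 6 h and 1.32 in 12 h cold siliques, and lower members -2.54, -1.29 and -0.78, where the control values are those that chose the members. At least 4-fold in the same direction were 100 higher members at 6 h (beside 2.27% of all transcripts) and 96 at 12 h (0.914%), and 25 lower members at 6 h (1.36%) and 39 at 12 h (0.675%).

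Across the 12 cold-treated libraries, limma with stage and duration in the model called 211 transcripts higher (1.58%) and 129 lower (0.967%) at 20 than at 15 DAP at an adjusted p under 0.05, with 2073 at an unadjusted p under 0.05. Of the higher members 144 of 365 were called, all of them higher, and of the lower members 68 of 298, all of them lower. Each stage has 2 cold-treated libraries, 1 of 6 h and 1 of 12 h, which are not replicates. The calls therefore rest on how far stage differences disagree between the 2 durations, pooled over 6 stages. A step that differs between 6 h and 12 h counts as spread and makes a call less likely. Without the 15 DAP 6 h library limma called 27 higher and 0 lower, and without the 15 DAP 12 h library 35 and 0 (1158 and 1449 at an unadjusted p under 0.05). Higher members were 27 and 34 of these calls. Without the 20 DAP 6 h library 75 higher and 33 lower members were called, and without the 20 DAP 12 h library 63 and 3, with 0 members called against their direction. With only the 15 and 20 DAP cold-treated libraries it called 0 and 0 (2562 at an unadjusted p under 0.05).

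**Figure D4:**
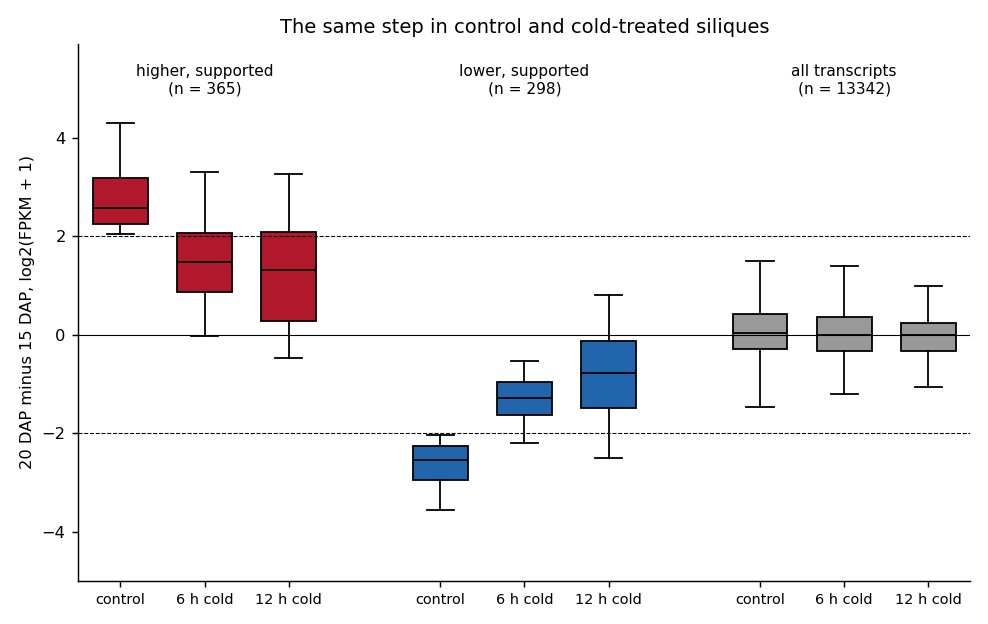
Difference between 20 and 15 DAP on log2(FPKM + 1) in control, 6 h cold and 12 h cold siliques, for higher members, lower members and all transcripts, as boxes from the 25th to the 75th percentile with the median and whiskers from the 5th to the 95th percentile of transcripts. Higher members have medians of 2.57, 1.48 and 1.32, and lower members -2.54, -1.29 and -0.78, while those of all transcripts are 0.04, 0 and 0.

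Several embryo and seed members passed the test in cold-treated siliques. LEC1-1 (c66162_g1_i1) had 29.0 and 40.5 FPKM in 6 h and 12 h cold siliques of 20 DAP, against 2.82 and 1.53 FPKM at 15 DAP, and rose by 3.50 (SE 0.306, limma adjusted p = 0.00291). WRINKLED1 (c70900_g1_i4) had 14.6 and 21.4 FPKM at 20 DAP, against 1.81 and 2.02 FPKM at 15 DAP, and rose by 2.68 (SE 0.254, limma adjusted p = 0.00336). Bn15D80B (c50548_g3_i1) had 271 and 352 FPKM at 20 DAP, against 13.7 and 20.7 FPKM at 15 DAP, and rose by 4.12 (SE 0.290, limma adjusted p = 0.00202). All 4 embryo regulator members passed, as did 3 of the 4 Bn15D members and 1 of the 2 storage protein members, while limma called none of the 20 oil body transcripts (5 higher at an unadjusted p under 0.05). Of 40 named transcripts that limma called, 7 stayed under an adjusted p of 0.05 with any 1 of the 4 cold-treated libraries of 15 and 20 DAP left out. These were LEC1-1 c66162_g1_i1 (highest adjusted p 0.0275, limma), Bn15D33A, both Bn15D80B unigenes, BnENODL4 c73075_g3_i2, the thionin family protein c61542_g1_i2 and low-molecular-weight cysteine-rich 23. WRINKLED1 did not pass without either 15 DAP library (limma adjusted p = 0.0605 without 6 h, 0.0580 without 12 h). None of the 40 turned its sign, and 18 did not pass in any of the 4 settings. The thionin family protein c61542_g1_i2 (3.28, SE 0.234, limma adjusted p = 0.00202), BnENODL4 c73075_g3_i2 (3.72, SE 0.312, limma adjusted p = 0.00285) and gibberellin 20-oxidase 4 c66552_g1_i6 (2.34, SE 0.345, limma adjusted p = 0.018) rose as well, the last with an adjusted p between 0.0699 and 0.209 when a library was left out.

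Secondary wall members mostly did not pass in cold-treated siliques. The 13 listed members had a median of 7.76 FPKM at 20 DAP, against 2.48 FPKM at 15 DAP in 6 h cold siliques, and 9.82 FPKM, against 8.32 FPKM in 12 h cold siliques, beside 36.6 against 3.01 FPKM in controls. All 13 differences were above 0 at 6 h (median 1.37) and 12 of 13 at 12 h (median 0.27). Limma called none of the 13 (4 higher at an unadjusted p under 0.05), and 2 of the 30 annotated to secondary cell wall biogenesis. The cellulose synthase subunit c66717_g1_i1 had 22.7 FPKM at 20 DAP, against 4.98 FPKM at 15 DAP at 6 h, and 31.1 FPKM, against 21.6 FPKM at 12 h (limma difference 1.25, SE 0.552, adjusted p = 0.339). At 25 DAP the 13 had medians of 42.1 and 37.6 FPKM in 6 h and 12 h cold siliques, beside 40.5 FPKM in the control. TPX2 family members went the other way at 12 h, where all 7 were lower at 20 than at 15 DAP (median -0.65) and all 7 higher at 6 h (median 1.10). Whether these differences depend on the treatment was not tested, as each treatment has 1 library a stage. At 15 and 20 DAP the 12 h libraries also had a smaller share of reads passing quality filtering than the 6 h ones.

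Lower members divided in the 12 h libraries, whose share of reads passing quality filtering was also smaller. Early nodulin-like protein 22 (c37038_g1_i1) had 8.5 and 5.64 FPKM in 6 h and 12 h cold siliques of 20 DAP, against 31.1 and 23.9 FPKM at 15 DAP, and fell by 1.83 (SE 0.291, limma adjusted p = 0.0227). Defensin-like protein 200 (c100944_g1_i1) fell by 1.68 (SE 0.283, limma adjusted p = 0.0273), the pectin methylesterase inhibitor c19902_g1_i2 by 2.01 (SE 0.261, limma adjusted p = 0.0132) and the AGL62-like c70411_g1_i6 by 1.47 (SE 0.228, limma adjusted p = 0.0205). Of these 4, the inhibitor passed with the 20 DAP 6 h library left out, and none passed with any of the other 3 libraries left out. The glycoside hydrolase members did not follow at 12 h. The 9 were all lower at 6 h (median -1.01), and 8 of the 9 were higher at 20 than at 15 DAP at 12 h (median 0.79). The family 28 member c129124_g1_i1 had 5.52 FPKM at 20 DAP, against 11.4 FPKM at 15 DAP at 6 h, and 66.5 FPKM, against 28.3 FPKM at 12 h. The 3 beta-xylosidase 3 unigenes had 8.38 to 9.21 FPKM at 20 DAP, against 2.40 to 2.76 FPKM at 15 DAP at 12 h. Limma called none of the 9 (0 at an unadjusted p under 0.05) and none of the 5 expansin members (3 lower at an unadjusted p under 0.05). Of the small cysteine-rich members it called 4 of 15 lower ones as lower and 6 of 8 higher ones as higher.

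The transcripts that the 10 and 25 DAP controls did not support were 16 on the higher side and 75 on the lower side. Of the 16 higher ones, glutamate decarboxylase 4a (c64973_g1_i1) had 30.5 FPKM at 20 DAP, against 2.49 FPKM at 15 DAP, with 42.3 FPKM at 10 DAP. The 75 lower ones had medians of 2.54, 4.21, 10.98, 0.65, 15.59 and 18.06 FPKM over control stages from 5 to 30 DAP, with the lowest at 20 DAP. Of the 75, 74 were higher at 25 than at 20 DAP (beside 51.7% of all transcripts), 59 of them at least 4-fold (beside 1.75%). This rise follows largely from the way they were chosen, which used the controls of 10, 15, 20 and 25 DAP. Lipoxygenase 2 (c72135_g1_i3), an enzyme of jasmonate synthesis, had 0.84 FPKM at 20 DAP, against 142 FPKM at 15 DAP (-6.28), and 237 FPKM at 25 DAP. A Kunitz-type protease inhibitor (c58410_g1_i1) had 0.60 FPKM at 20 DAP, against 92.7 FPKM at 15 DAP (-5.87), and 661 FPKM at 25 DAP. All 4 jasmonate transcripts past 4-fold lower, all 4 AP2 ones and 10 of 612 annotated to the response to wounding belonged to this group. In 6 h cold siliques 44 of the 75 were at least 4-fold lower at 20 than at 15 DAP (beside 1.36% of all transcripts). In 12 h cold siliques 3 were so (beside 0.675%).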

How the data were processed

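One library was made for each of 6 stages and 3 treatments from whole siliques (TruSeq v2 kit, Illumina HiSeq). The authors filtered reads with NGS QC Toolkit, assembled them with Trinity, aligned them back with Bowtie2 and estimated abundance with RSEM, and the deposited table holds FPKM values scaled by TMM, although its title calls them counts. No source used here gives the versions. Only transcripts found by the authors with edgeR to differ between libraries are in it. A deposited annotation made with FastAnnotator gives transcript length in bp, best hits, Pfam domains and GO processes. No column of another sample was present.

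Values were taken to log2(FPKM + 1), with no filter on low values. The difference understates low transcripts. A difference of 2 (4-fold) counted as different, and support was the same sign of 25 minus 10 DAP controls. With 1 library a stage no test was made on controls. Cold-treated libraries were fitted with limma 3.58.1 (R 4.3.3), with stage as factor, duration as block and 5 residual degrees of freedom. Benjamini-Hochberg adjustment ran over 13342 transcripts. A check of the code used simulated independent noise and a loose limit on false calls, so it is no support for the calls. The spread behind the p-values is the disagreement between the 6 h and 12 h libraries over the stages, and not that between replicates. No source used here says whether libraries come from separate plants, so part of it may be technical. Other steps used Python 3.11.15, pandas 2.3.3, numpy 2.4.6 and matplotlib 3.10.9.

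Named transcripts are the 12 higher and 12 lower members with a named best hit, the largest difference and at least 10 FPKM in the higher library, 1 per unigene. To these came up to 3 members of each list with at least 5 FPKM, the most abundant transcript of 8 marker genes, up to 4 unsupported ones each way, and the 2 nearest each side of the limit. Members of a group given by range, and features said to be picked later, lie outside this rule. There were 64 gene lists, matched by words of the best hit, Pfam domain or GO process, and 11 added after the values were seen. Members and lists were chosen with earlier results of these data known. Alternatives were a pseudocount of 0.1, a 2-fold limit, sums over the isoforms of a unigene, size factors from median ratios, a minimum mean of 1 FPKM, other control stages in place of 15 or 20 DAP or for support, other sets of libraries for limma, and each cold-treated library of 15 and 20 DAP left out.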

Additional observations from a re-analysis of the deposited data

Results flagged for a closer look

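For 2 named members both cold-treated pairs went the opposite way to the control pair, a difference that was not tested. The homeodomain factor ATHB21/HB-2 (c61115_g1_i1) had 1.03 FPKM at 20 DAP, against 10.0 FPKM at 15 DAP in controls, a difference of -2.44. It had 9.23 FPKM at 20 DAP, against 3.25 FPKM at 15 DAP in 6 h cold siliques, and 3.10 FPKM, against 1.48 FPKM in 12 h cold siliques. In 2-isopropylmalate synthase (c65472_g1_i2), an enzyme of leucine synthesis, the control pair had 19.5 FPKM at 20 DAP, against 4.08 FPKM at 15 DAP, a difference of 2.01. The 6 h pair had 3.67 FPKM at 20 DAP, against 7.71 FPKM at 15 DAP, and the 12 h pair 5.58 FPKM, against 9.70 FPKM.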

How the results depend on the processing

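The higher and lower counts before support were 1142 and 933 with a pseudocount of 0.1 and 1331 and 1179 at 2-fold, and supported counts were 1023 and 742, then 1223 and 886. With the 25 DAP control in place of the 20 DAP one, 609 were higher, and 578 of these supported by 20 minus 10 DAP controls. The other planned and added settings for these counts, the latter chosen after seeing the data, stayed within 1.5 times of the values given: supported counts ran over 271 to 515 higher and 227 to 363 lower, lower counts with the 25 DAP control included. With the 10 DAP control in place of the 15 DAP one, 264 of the 365 higher and 140 of the 298 lower members were among those found. Members of any list numbered 279 higher and 140 lower with a pseudocount of 0.1. With a pseudocount of 0.1 limma called 61 lower. Leaving out 1 of the 4 cold-treated libraries of 15 and 20 DAP gave 27 to 107 higher and 0 to 46 lower, the lone library of a stage being assumed to vary like the others. With only those 4 libraries it called 0 and 0, and with all 18 libraries 792 and 620, in which the 15 and 20 DAP controls take part. Of 110 named transcripts, rescaling by the median ratio moved 3 and the pseudocount 68 by more than the residual SD, none to the opposite sign. Of 101 counts of list members, 77 moved by over 1.5 times with a pseudocount of 0.1 and 21 after rescaling. The labels carry no replicate numbers, and duration is the block that pairs the 6 h and 12 h cold libraries across stages: without it limma called 218 higher and 128 lower.

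The control step rests on 1 library a stage, so that members under 5 FPKM in both libraries are the least certain. Fragments at a given FPKM were estimated here from the lowest values, while the study lists the mapped reads of each library. With at least 5 FPKM asked of the higher library (added after seeing the data) 336 higher and 269 lower members remained.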
